A study of Bos taurus and Mus musculus with 16 samples.

Results

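Mitochondrial import and assembly factors were taken as the genes whose symbol, in upper case, begins with TIMM, TOMM or CHCHD followed by a number, or with COA followed by a digit. NDUF genes were left out. The rule found 37 of 16655 genes in the mouse table and 37 of 14852 in the bovine table, and 35 and 36 of them had a mean of at least 10 normalized reads and were tested. In all, 38 genes were tested in at least 1 species and 33 in both, with mouse Tomm70a, mouse Timm8a1 and bovine CHCHD8 paired with TOMM70, TIMM8A and COA4. The samples were Tead4-edited mouse morulae (n = 2) and control mouse morulae (n = 2), collected 3.25 days after fertilization, and TEAD4-edited bovine blastocysts (n = 6) and control bovine blastocysts (n = 6), collected at 7.0 days. Every zygote, controls included, received mRNA of the cytosine base editor BE3, a fusion of a Cas9 nickase with a cytidine deaminase, and only the edited groups received in addition a mix of single guide RNAs against Tead4 or TEAD4. Loss of TEAD4 and any other effect of carrying guide RNAs therefore cannot be told apart. How many embryos each sample held, and whether the samples of a group were injected on separate occasions, is not stated in the labels. The p-values thus measure the spread among these samples only, and that spread may be technical.

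Nearly all mitochondrial proteins are made in the cytosol and imported. Precursors enter through the TOM complex of the outer membrane, after which the TIM23 complex takes those with a presequence into the matrix or the inner membrane, the small Tim chaperones escort hydrophobic carriers to the TIM22 complex, and CHCHD4 (Mia40) oxidises small cysteine-rich proteins and so traps them in the intermembrane space. COA proteins help to build cytochrome c oxidase, and several CHCHD proteins organise cristae. Mitochondria of the cleaving embryo come from the oocyte, and respiration rises as the blastocyst forms. TEAD4, the edited gene, is a DNA-binding partner of YAP1 needed for the trophectoderm of the mouse embryo.

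Sequences are shown for 8 of the 16 members with the twin-cysteine motif of oxidative import: the 6 that are among the 9 mouse members past the test, and Timm9 and Chchd4, chosen after their values were seen as a small Tim and the import oxidase that did not pass. In the longest GENCODE M21 coding sequence of each gene (mm10), pairs of in-frame cysteine codons (TGT or TGC) were sought as twin CX9C or twin CX3C motifs, on the coding strand, with 9 or 3 codons between the cysteines of a pair and 5 to 30 codons between the pairs. Of the 35 tested mouse members, 10 held a twin CX9C and 6 a twin CX3C motif, against 1.92% and 1.44% of the 10186 tested genes with a coding sequence. Since members were picked by family name, this excess describes the list and is no result of these data. The stretches below run 5′ to 3′ from the first to the last cysteine codon, with the 4 cysteine codons in capitals. Timm8a1 (codons 43 to 66), Timm13 (codons 46 to 69) and Timm8b (codons 36 to 59) are small Tims whose transcripts fell, Timm9 (codons 28 to 52) is one whose transcript did not pass, Chchd10 (codons 98 to 128), Chchd1 (codons 45 to 76) and Coa4 (codons 34 to 64) are twin CX9C genes whose transcripts fell, and Chchd4 (codons 64 to 97) encodes the oxidase itself.
Timm8a1: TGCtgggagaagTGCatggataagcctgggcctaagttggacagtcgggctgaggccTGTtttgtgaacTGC
Timm13: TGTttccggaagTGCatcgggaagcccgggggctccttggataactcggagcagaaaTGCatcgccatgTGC
Timm8b: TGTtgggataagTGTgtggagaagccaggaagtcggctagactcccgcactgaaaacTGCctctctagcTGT
Timm9: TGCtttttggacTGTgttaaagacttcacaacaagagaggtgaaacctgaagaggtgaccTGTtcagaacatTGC
Chchd10: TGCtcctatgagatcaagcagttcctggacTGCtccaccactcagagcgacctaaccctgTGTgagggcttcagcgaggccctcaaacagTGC
Chchd1: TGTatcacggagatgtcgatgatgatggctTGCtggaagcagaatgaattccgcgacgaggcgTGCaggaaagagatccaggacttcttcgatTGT
Coa4: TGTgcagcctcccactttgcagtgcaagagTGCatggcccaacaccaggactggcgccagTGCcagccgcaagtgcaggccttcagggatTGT
Chchd4: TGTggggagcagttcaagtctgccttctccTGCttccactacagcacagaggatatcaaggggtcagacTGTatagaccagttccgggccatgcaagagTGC

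Gene-assigned reads numbered 4386305 and 6109425 in edited and 4187826 and 3642907 in control morulae. In cattle they ranged over 817329 to 2259064 in edited and 934078 to 2501592 in control blastocysts. A count of 3 reads, the smallest amount taken as detectable here, corresponded to 2.13 to 3.79 normalized reads in mouse and 1.71 to 5.56 in bovine samples, covering counting error only. Tead4 stood at 57.2 and 76.5 normalized reads in edited morulae, against 458 and 519 in control morulae. In cattle, where the 3 values of a group are its lowest, median and highest sample from here on, TEAD4 stood at 22.6, 37.5 and 65.6 normalized reads in edited blastocysts, against 61.2, 92.9 and 125 in control blastocysts. The log2 fold change of -1.25 ± 0.25 did not pass (adjusted p = 0.235). The embryo markers Cdx2, Gata3, Krt8, Krt18, Tfap2c, Pou5f1, Nanog and Sox2 were all in both tables. The 5 trophectoderm markers summed to 2124 and 1894 normalized reads in edited and 6169 and 7107 in control morulae, and to 8441 to 21449 in edited and 11093 to 21398 in control blastocysts. Each list of markers of cumulus and granulosa cells (2 of 7 in the mouse table, 5 of 7 in the bovine), blood (1 of 5 and 2 of 5) and spermatozoa (0 of 4 and 1 of 4) summed to at most 36.2 normalized reads in a mouse sample and 36.5 in a bovine one. Cyp19a1, Fshr, Prm1, Prm2 and Ptprc had no row in the mouse table. A transcript that is lower in a whole-embryo sample can reflect fewer cells that express it or less RNA per cell, and these cannot be told apart.

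In mouse morulae 9 of the 35 tested members were lower in the Tead4-edited samples and 0 were higher (limma, adjusted p under 0.05), where 8.38% of the 11386 tested genes were called lower and 6.92% higher. At an unadjusted p under 0.05, 17 were lower and 1 higher, against 15.2% and 13.4% of all tested genes. edgeR called 9 members lower and 0 higher (7.54% and 7.12% of all tested genes), and DESeq2 7 lower and 0 higher (6.57% and 5.15%). The members that fell were Tomm7 of the outer membrane, the small Tims Timm8a1, Timm13 and Timm8b, the CHCHD genes Chchd10 and Chchd1, and the oxidase assembly factors Coa3, Coa4 and Coa6. They stood at 52.4% to 66.8% of their control means. The median log2 fold change was -0.37 over the members and -0.0049 over all tested genes. The log2 fold change was negative in 28 members and positive in 7, against 50.3% and 49.7% of all tested genes. In 23 members both edited samples lay below both control samples and in 3 above both, against 29.2% and 28.6%. By role, 1 of 8 outer membrane, 0 of 6 presequence translocase, 3 of 8 carrier translocase and small Tim, 2 of 8 CHCHD and 3 of 5 oxidase assembly genes fell, with medians of -0.20, -0.24, -0.41, -0.48 and -0.61. In the authors' deposited DESeq2 results the members that fell here were under an adjusted p of 0.05 too, except Coa3 (0.056) and Coa4 (0.0622). The share of all genes under that threshold there was not counted. Cell type markers moved as well. Of the 5 trophectoderm markers Cdx2, Gata3, Krt8 and Krt18 fell, with log2 fold changes between -3.79 (Krt18) and -1.74 (Krt8), and Tfap2c did not pass (0.18 ± 0.20, adjusted p = 0.599). Of the 3 pluripotency markers Pou5f1 rose (1.40 ± 0.19, adjusted p = 1.86e-05), with 1133 and 929.9 normalized reads in edited morulae, against 344 and 436 in control morulae. Sox2 (1.04 ± 0.44, adjusted p = 0.117) and Nanog (-0.58 ± 0.25, adjusted p = 0.122) did not pass, and the 3 summed to 1911 and 2861 normalized reads in edited and 1985 and 2373 in control morulae. The part of cell type in the members' values was not tested.

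Most of these calls rest on both control samples. Members called lower numbered 0 without control sample 1, 2 (Chchd10 and Timm8a1) without control sample 2, 7 without edited sample 1 and 13 without edited sample 2. Over all tested genes the lower calls numbered 227 (1.99%), 248 (2.18%), 769 (6.75%) and 1506 (13.2%) in the same 4 fits, against 954 with all samples.

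**Figure D1:**
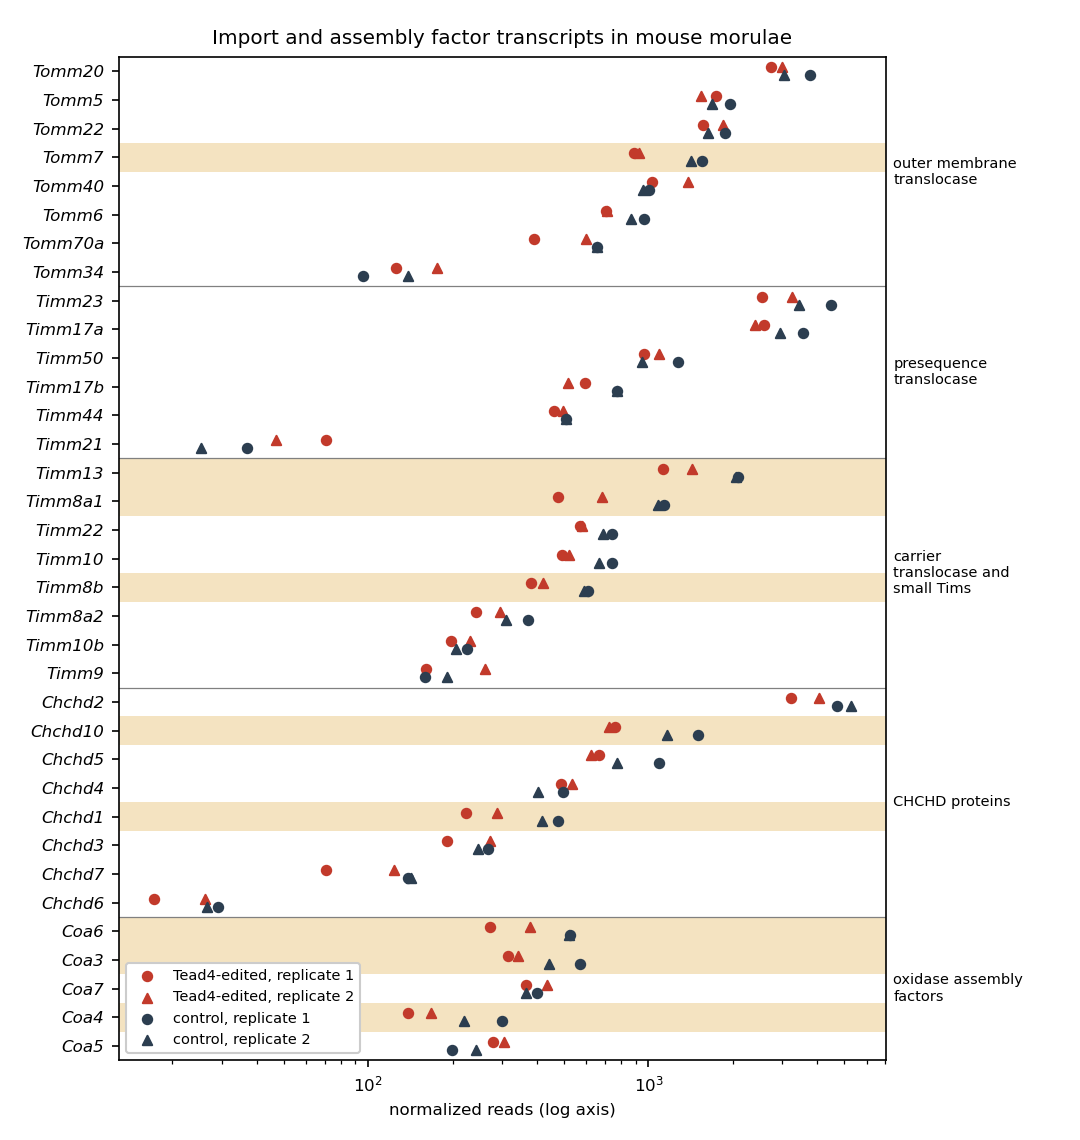
Normalized reads (log axis) of the 35 tested members in each of the 4 mouse samples, grouped by role, with Tead4-edited samples in red and control samples in dark blue; shaded rows are the 9 members called lower. In each shaded row both edited samples lie to the left of both control samples, while Timm21, Coa5 and Tomm40 have both edited samples to the right.

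Of the 8 outer membrane genes, Tomm7 fell. Tomm7 (chromosome 5, 23838944 to 23844161, minus strand, mm10), a small subunit that also steadies the kinase PINK1 at the outer membrane, had 886 and 928 normalized reads in edited morulae, against 1549 and 1418 in control morulae. Both edited samples lay well below both control samples, and the log2 fold change was -0.71 ± 0.17 (SE, n = 2 per group, adjusted p = 0.00543). Further values in brackets are log2 fold changes with their SE. The call was lost without control sample 1 (adjusted p = 0.148) and without control sample 2 (0.0763). Tomm6, another small subunit, had 704 and 710.2 normalized reads in edited morulae, against 961 and 868 in control morulae, and Tomm5, the third, 1746 and 1535 normalized reads in edited morulae, against 1959 and 1682 in control morulae. For Tomm6 the groups did not overlap, but neither passed (values -0.37 ± 0.18 and -0.15 ± 0.17, adjusted p = 0.171 and 0.602). The import channel Tomm40 had 1033 and 1386 normalized reads in edited morulae, against 1006 and 957 in control morulae. Among the 8 tested outer membrane genes it was the one with both edited samples above both controls. It did not pass (log2 fold change 0.29 ± 0.18, adjusted p = 0.31). Tomm22, the central receptor that holds the complex together, had 1568 and 1844 normalized reads in edited morulae, against 1877 and 1627 in control morulae, so that the groups overlapped (-0.039 ± 0.17, adjusted p = 0.908). Tomm20, the presequence receptor, had 2727 and 2984 normalized reads in edited morulae, against 3784 and 3047 in control morulae (-0.25 ± 0.16, adjusted p = 0.325). Tomm70a, the receptor for carrier precursors, had 392 and 597 normalized reads in edited morulae, against 656 and 653 in control morulae. Its edited sample 1 was far below the other 3 samples, and its log2 fold change of -0.43 ± 0.20 missed the threshold (adjusted p = 0.159) but passed without edited sample 2, at -0.74. Tomm34, a cytosolic cochaperone of precursors, overlapped between groups (0.36 ± 0.28, adjusted p = 0.424). Tomm20l and Tomm40l were below the filter on low values, with 8.58 and 9.92 normalized reads in edited morulae, against 5.59 and 2.53 in control morulae for Tomm20l and 7.63 and 9.92 normalized reads in edited morulae, against 1.12 and 1.26 in control morulae for Tomm40l.

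No gene of the presequence translocase passed. Timm23, the channel, had 2546 and 3255 normalized reads in edited morulae, against 4488 and 3438 in control morulae (-0.45 ± 0.17, adjusted p = 0.0772). Its edited samples lay below its controls, edited sample 2 only just, and it passed without edited sample 2, at -0.63. The channel partners Timm17a and Timm17b were lower in both edited samples too, with log2 fold changes of -0.38 ± 0.16 and -0.48 ± 0.18 (adjusted p = 0.113 and 0.0773). Timm50, the receptor facing the intermembrane space, had 960.1 and 1088 normalized reads in edited morulae, against 1274 and 951 in control morulae, and the groups overlapped (-0.11 ± 0.18, adjusted p = 0.747). Timm44, which tethers the import motor, had 459.6 and 495 normalized reads in edited morulae, against 507 and 508 in control morulae (-0.091 ± 0.19, adjusted p = 0.799). Timm21, which links the translocase to the respiratory chain, had 70.6 and 46.8 normalized reads in edited morulae, against 36.9 and 25.3 in control morulae. It averaged 24.3 normalized reads per kilobase of exon in edited and 12.9 in control samples, the lowest of the tested members in control samples, and was the member with the highest log2 fold change (0.89 ± 0.40), which did not pass (adjusted p = 0.139).

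Among the small Tims, Timm8a1, Timm13 and Timm8b fell, and Timm9, Timm10 and Timm8a2 did not pass. Timm8a1 (chromosome X, 134537256 to 134541865, minus strand), whose human counterpart TIMM8A is mutated in deafness-dystonia syndrome, had 476 and 685 normalized reads in edited morulae, against 1133 and 1080.2 in control morulae. It fell to 52.4% of its control mean, with the lowest log2 fold change among the members, -0.95 ± 0.19 (adjusted p = 0.0012), a call lost without control sample 1 (adjusted p = 0.0564). Timm13 (chromosome 10, 80899450 to 80900969, minus strand), with which Timm8a1 forms a chaperone hexamer, had 1128 and 1429.6 normalized reads in edited morulae, against 2084 and 2054 in control morulae. The control samples nearly coincided and both edited samples lay below them. The call (-0.70 ± 0.17, adjusted p = 0.00561) was lost without control sample 1 (0.114) and without control sample 2 (0.102). Timm8b (chromosome 9, 50603910 to 50605320, plus strand), a relative of Timm8a1, had 380.4 and 419 normalized reads in edited morulae, against 609 and 587 in control morulae (-0.58 ± 0.19, adjusted p = 0.0404). That call stood without edited sample 2 alone among the fits that left out 1 sample, with adjusted p up to 0.291, and was lost when every sample was scaled to the same total (0.0996) and with no filter on low values (0.0641). Timm8a2, an autosomal copy whose coding sequence is identical to that of Timm8a1 at 77.6% of 294 bases, had 242 and 296 normalized reads in edited morulae, against 372 and 311 in control morulae (-0.34 ± 0.22, adjusted p = 0.31). Timm10, a subunit of the other chaperone hexamer, had 492 and 520.2 normalized reads in edited morulae, against 739 and 667 in control morulae, lower in both edited samples but short of the threshold (-0.47 ± 0.19, adjusted p = 0.088). Timm9, its partner, had 161 and 261 normalized reads in edited morulae, against 159.8 and 191 in control morulae. These groups overlapped, and the log2 fold change was 0.23 ± 0.26 (adjusted p = 0.599). Timm22, the carrier channel, had 569 and 580.5 normalized reads in edited morulae, against 743 and 686 in control morulae (-0.31 ± 0.18, adjusted p = 0.272), and Timm10b, a peripheral subunit of the same complex, stood at -0.015 ± 0.23. Whether the Timm8-Timm13 and Timm9-Timm10 genes differed from each other was not tested.

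Of the CHCHD genes, which are named for their coiled-coil-helix domains, Chchd10 and Chchd1 fell. Chchd10 (chromosome 10, 75933130 to 75937747, plus strand), an intermembrane space protein mutated in human motor neuron disease, had 761 and 724 normalized reads in edited morulae, against 1501 and 1166 in control morulae. Its edited samples were close together and below both controls. The call (-0.83 ± 0.18, adjusted p = 0.00225) was lost without control sample 1, the higher of the controls (adjusted p = 0.154). Chchd1 (chromosome 14, 20703006 to 20704425, plus strand), a protein of the small mitochondrial ribosomal subunit, had 223 and 288 normalized reads in edited morulae, against 476 and 416 in control morulae. The call (-0.81 ± 0.21, adjusted p = 0.0103) was lost without control sample 1 (0.201) and without control sample 2 (0.0889). Chchd2, the paralog of Chchd10 and the most abundant member per length in control morulae, had 3218 and 4065 normalized reads in edited morulae, against 4723 and 5267 in control morulae. Its groups did not overlap and it just missed the threshold (-0.46 ± 0.16, adjusted p = 0.0529), which it passed with robust limma (0.0407), with a filter at a mean of 50 (0.0482) and without edited sample 2 (0.00205). Chchd5 and Chchd7, small twin CX9C proteins, had log2 fold changes of -0.51 ± 0.19 and -0.58 ± 0.29 (adjusted p = 0.0732 and 0.196). Chchd4, the oxidase that imports twin-cysteine proteins, had 486 and 533 normalized reads in edited morulae, against 494 and 402 in control morulae, with overlapping groups (0.19 ± 0.20, adjusted p = 0.565). Chchd3, a cristae-organising subunit, had 192 and 273 normalized reads in edited morulae, against 267 and 247 in control morulae (-0.17 ± 0.23, adjusted p = 0.686), and its paralog Chchd6, at a mean of 21.7 in edited and 27.8 in control samples, had -0.37 ± 0.49 (adjusted p = 0.662).

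The assembly factors of cytochrome c oxidase split into 3 that fell and 2 that did not pass. Coa6 (chromosome 8, 126422515 to 126425433, plus strand), which helps to deliver copper to the oxidase, had 273 and 379 normalized reads in edited morulae, against 523 and 522 in control morulae. The controls were almost equal and both edited samples were lower (-0.70 ± 0.21, adjusted p = 0.0225). Coa4 (chromosome 7, 100537071 to 100540369, plus strand), an intermembrane space protein, had 139 and 167 normalized reads in edited morulae, against 301 and 220.1 in control morulae (-0.75 ± 0.24, adjusted p = 0.0365). Coa3 (chromosome 11, 101277968 to 101279114, minus strand), which stabilises newly made COX1, had 315 and 342 normalized reads in edited morulae, against 568 and 441 in control morulae (-0.61 ± 0.21, adjusted p = 0.0447). Each of these 3 calls was lost without control sample 1, without control sample 2 and without edited sample 1, with adjusted p up to 0.2 for Coa6, 0.43 for Coa4 and 0.462 for Coa3. They were also lost with every sample scaled to the same total, with adjusted p = 0.0552 for Coa6, 0.079 for Coa4 and 0.104 for Coa3, and Coa4 and Coa3 with DESeq2 (0.0642 and 0.0597) and with no filter on low values (0.0609 and 0.0724). Coa5 had 278 and 305 normalized reads in edited morulae, against 199 and 243 in control morulae, higher in both edited samples but not past the threshold (0.41 ± 0.22, adjusted p = 0.236), and Coa7 stood at 0.057 ± 0.20 (adjusted p = 0.884).

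The motif groups can be set side by side as a description. Of the 16 members with a twin motif 6 fell, at a median log2 fold change of -0.49, and of the 19 with neither 3 fell, at a median of -0.25. With the trend on exonic length removed (below), Timm8a1, Timm13 and Chchd10 were the twin-motif members called lower. Those called lower with neither motif were Timm17a and Timm17b. Of the 292 tested genes outside the list that held either motif, 17 (5.82%) were called lower and 20 higher, with a median of 0.026. That share of lower calls stands beside the 8.38% called lower over all tested genes. Coa6, Coa3 and Timm10b did not match either motif, which says only that these spacings are not in the coding sequence that was read. Shorter coding sequences of the same genes were not read, so the split into motif groups is not a full classification.

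Per kilobase of exon, the members spanned a wide range in control morulae. Chchd2 averaged 3979.6 and 5459 normalized reads per kilobase in edited and control samples, Timm23 2473 and 3378, and Timm13 985 and 1594. At the low end Chchd6 averaged 19.3 and 24.7. Members that fell lay between 183 normalized reads per kilobase (Coa4) and 1594 (Timm13) in control samples, and those with the highest level per length, Chchd2, Timm23 and Tomm5, did not pass. Across the 35 members, which share the 4 libraries, the log2 fold change was correlated with exonic length at a Spearman's rho of 0.57, against 0.18 over the 10688 tested genes with a length. The members were short, with a median exonic length of 1515 nucleotides against 3187.5 over those genes. Put into 10 groups by length, all tested genes of the shortest group, which held 12 members, had a median log2 fold change of -0.49, and those of the second shortest, which held 9, of -0.17. In these groups the members had medians of -0.47 and -0.58.

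**Figure D2:**
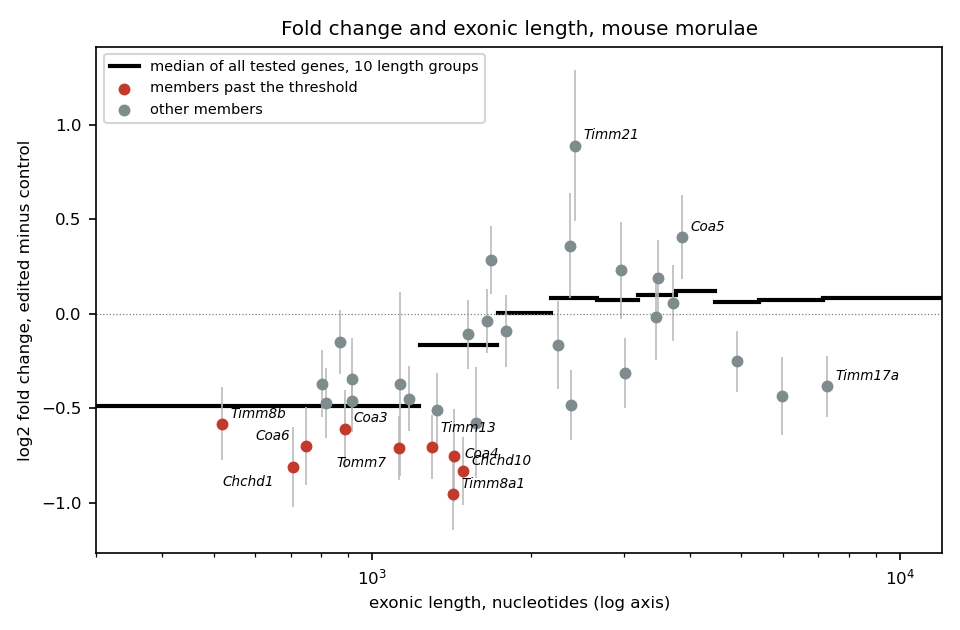
Log2 fold change (edited minus control, with SE) of the 35 tested mouse members against exonic length on a log axis, with black bars for the medians of all tested genes in 10 length groups. The 9 members that fell, in red, are at most 1488 nucleotides long, where the bars lie at -0.49 and -0.17.

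With the trend on length removed in each sample, the median of the members was -0.12 and that of all genes -0.026, and 5 members were lower, against 6.37% of 10688 genes. They were Timm8a1 (-0.80, adjusted p = 0.00751), Chchd10 (-0.72, 0.00943) and Timm13 (-0.50, 0.0349), which also passed without the correction, and Timm17b (-0.58, 0.0347) and Timm17a (-0.47, 0.0439), which did not. The other 6 calls were lost. Of these, Coa4 stood at -0.60 (adjusted p = 0.097), Tomm7 at -0.44 (0.062) and Chchd1 at -0.33 (0.296). Coa6 stood at -0.24 (0.458), Coa3 at -0.22 (0.48) and Timm8b at -0.0043 (0.991). When every sample was scaled to the same total, which moved the median of all genes to 0.12, 5 members fell, against 6.01% of all tested genes, at a member median of -0.25. Exons of 5 of the 9 members that fell, Timm13, Timm8b, Chchd1, Coa3 and Coa6, overlap a gene on the opposite strand in the annotation. So do those of 6 of the other 26. Reads of such partners cannot be told apart from reads of the members here. The members that fell and have no such overlap, Timm8a1, Chchd10, Tomm7 and Coa4, had a median of -0.79, beside -0.70 for those with one.

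Other genes of protein import and oxidase assembly, sought under 66 symbols (aliases included) in 6 lists, gave 58 tested genes in mouse. Of these, 13 were lower and 2 higher, against 8.38% and 6.92% of all tested genes. Their median log2 fold change was -0.27, beside -0.0049 over all tested genes. For the other fits below, the shares called lower over all tested genes are those given above. Of 15 presequence chaperones and peptidases 4 fell and 1 rose, with Pam16 (-0.84 ± 0.20) and Dnajc19 (-0.64 ± 0.20), both of the import motor, and the nucleotide exchange factors Grpel2 (-0.76 ± 0.25) and Grpel1 (-0.52 ± 0.17) lower, and Pmpca (0.68 ± 0.21), a subunit of the processing peptidase, higher. Of 9 genes of outer membrane sorting and channels 3 fell, the anion channels Vdac2 (-0.78 ± 0.18) and Vdac3 (-0.66 ± 0.20) and the carrier-like protein Mtch2 (-0.68 ± 0.17). Among 15 further oxidase assembly genes 4 fell and 0 rose, namely Pet100 (-1.02 ± 0.24), Cox14 (-0.93 ± 0.19), the copper chaperone Cox17 (-0.67 ± 0.17) and Cmc2 (-0.65 ± 0.21). Of 5 cristae genes, Apoo (-0.97 ± 0.28) and Minos1 (-0.65 ± 0.18) fell. The 11 genes of membrane insertion and quality control, such as the prohibitins Phb and Phb2, had 0 calls either way. The lower calls numbered 0 without control sample 1, 1 without control sample 2, 8 without edited sample 1 and 18 without edited sample 2, 8 with samples scaled to the same total and 10 with the length trend removed. Higher calls numbered 5 with the same total, where 1113 of all 11386 tested genes were called higher. With the length trend removed there was 1, where 566 of 10688 genes were called higher.

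In bovine blastocysts 0 of 36 tested members were lower and 0 higher (limma), where 0.0113% of 8884 tested genes were called lower and 0.0% higher. At an unadjusted p under 0.05, 1 was higher and 0 lower, against 2.77% and 3.11% of all tested genes, and edgeR and DESeq2 called 0 members as well. The 1 member was TIMM21, with 58.2, 72.9 and 93.4 normalized reads in edited blastocysts, against 32.1, 57.9 and 76.5 in control blastocysts. The groups overlapped, and the log2 fold change was 0.46 ± 0.22 (SE, n = 6 per group, adjusted p = 0.792). The median log2 fold change of the members was 0.086, beside 0.011 over all tested genes, and 28 of 36 values were positive and 8 negative, against 51.5% and 48.5% of all tested genes. In the authors' deposited DESeq2 results the smallest adjusted p of a member was 0.965. In 0 members did the 6 edited samples lie wholly below or wholly above the 6 controls, against 0.158% and 0.09% of all tested genes.

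No gene of the bovine outer membrane or presequence translocase passed. TOMM40 had 107, 157 and 228 normalized reads in edited blastocysts, against 90.8, 120.3 and 185 in control blastocysts (0.32 ± 0.22). TOMM20 had 488, 651 and 720.1 normalized reads in edited blastocysts, against 426, 613 and 952 in control blastocysts (0.055 ± 0.18). Every range overlapped that of the other group. The lowest values in this group of genes were TOMM7, with 193, 270.4 and 321 normalized reads in edited blastocysts, against 240.1, 317 and 363 in control blastocysts (-0.24 ± 0.18, adjusted p = 0.795), and TOMM70, with 118, 147 and 169 normalized reads in edited blastocysts, against 139, 157 and 209 in control blastocysts (-0.20 ± 0.17, adjusted p = 0.824). TOMM22 had 221, 253 and 291 normalized reads in edited blastocysts, against 235, 299 and 321 in control blastocysts (-0.17 ± 0.15). The presequence translocase genes were all on the positive side, with TIMM50 at 174, 263 and 365 normalized reads in edited blastocysts, against 132, 186 and 291 in control blastocysts (0.44 ± 0.24, adjusted p = 0.792). TIMM23 stood at 187, 241 and 289 normalized reads in edited blastocysts, against 164, 236 and 269.9 in control blastocysts (0.11 ± 0.17) and TIMM44 at 91.3, 132 and 167 normalized reads in edited blastocysts, against 81.6, 108 and 187 in control blastocysts (0.18 ± 0.22). None of these passed.

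Among bovine small Tims, TIMM10 had the lowest log2 fold change of all members, -0.40 ± 0.26 (adjusted p = 0.795), with 38.2, 85.8 and 106 normalized reads in edited blastocysts, against 67.1, 97.0 and 176 in control blastocysts. TIMM13 had 189.6, 269 and 344 normalized reads in edited blastocysts, against 155, 249.6 and 289 in control blastocysts (0.24 ± 0.21). TIMM8A had 104, 197 and 334 normalized reads in edited blastocysts, against 169, 188 and 255 in control blastocysts (0.0095 ± 0.23). The range within each group was wider than the difference of the medians, and neither passed. TIMM8B had 58.0, 85.7 and 143 normalized reads in edited blastocysts, against 63.1, 94.0 and 106 in control blastocysts (-0.021 ± 0.22). TIMM9, its distant relative in the other hexamer, had 53.4, 101 and 103 normalized reads in edited blastocysts, against 34.3, 82.4 and 135 in control blastocysts (0.13 ± 0.27). TIMM22 had 42.1, 50.1 and 88.9 normalized reads in edited blastocysts, against 32.1, 49.7 and 54.2 in control blastocysts (0.18 ± 0.22). Groups overlapped in all 3. Of the CHCHD genes CHCHD1 had 87.7, 104 and 125 normalized reads in edited blastocysts, against 74.9, 85.9 and 98.7 in control blastocysts (0.29 ± 0.17, adjusted p = 0.793), and CHCHD3 had 313, 433 and 537 normalized reads in edited blastocysts, against 190.1, 331 and 497 in control blastocysts (0.35 ± 0.22). Neither passed, nor did the abundant CHCHD2 or the oxidase CHCHD4. CHCHD2 had 687, 914 and 1099 normalized reads in edited blastocysts, against 679.9, 795 and 958 in control blastocysts (0.11 ± 0.16). CHCHD4 had 94.5, 115 and 147 normalized reads in edited blastocysts, against 76.3, 107 and 145 in control blastocysts (0.16 ± 0.20). CHCHD10 was scarce in cattle, with 4.24, 13.4 and 21.4 normalized reads in edited blastocysts, against 4.62, 16.4 and 31.0 in control blastocysts (-0.18 ± 0.43), and the lowest value of each group equals 3 reads. CHCHD6 was below the filter, with a mean of 9.03 in edited and 5.54 in control samples. Of the oxidase assembly factors, COA3 had 107, 138 and 172 normalized reads in edited blastocysts, against 67.7, 113 and 149 in control blastocysts (0.32 ± 0.20), and COA6 had 62.5, 67.5 and 80.3 normalized reads in edited blastocysts, against 42.2, 60.2 and 95.4 in control blastocysts (0.094 ± 0.21). Both overlapped between groups and did not pass. The other 14 tested members had log2 fold changes between -0.13 (TOMM6) and 0.35 (COA7). The 57 tested bovine genes of the other import and assembly lists had 0 calls in either direction with limma and with edgeR, at a median of 0.15. At an unadjusted p under 0.05 there was 1, IMMT of the cristae (log2 fold change 0.46 ± 0.19, adjusted p = 0.792).

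**Figure D3:**
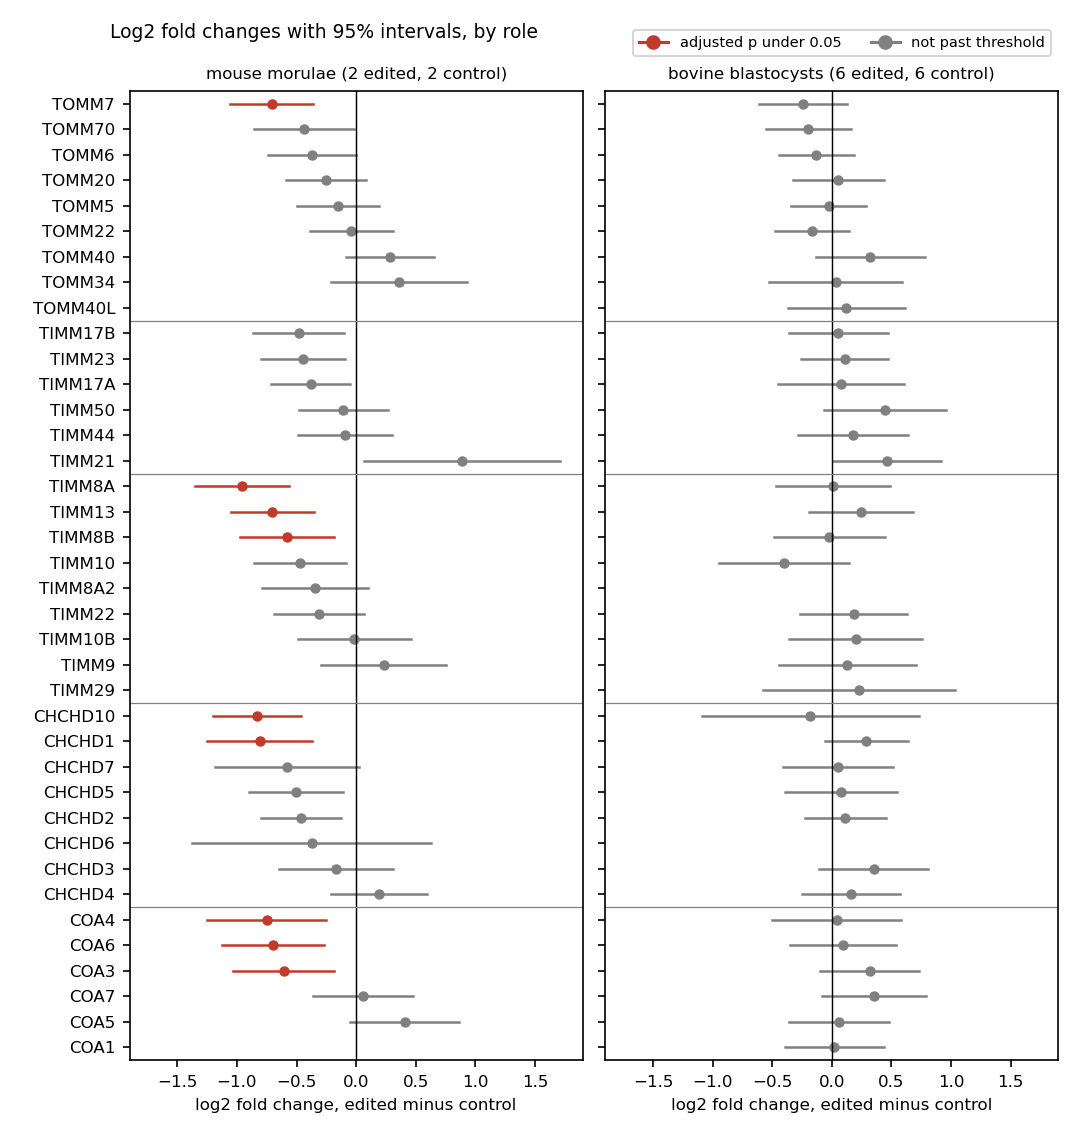
Log2 fold changes (edited minus control) with 95% intervals of the members tested in either species, by role, for mouse morulae on the left and bovine blastocysts on the right; red marks an adjusted p under 0.05. The 9 red intervals are all in mouse and left of 0, and every bovine interval is grey, and all of them but that of TIMM21 reach across 0.

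Within the edited bovine group the 3 deepest libraries had the highest member levels. The median over members of the log2 value minus the control mean was 0.22, 0.35 and 0.28 in edited samples 1, 5 and 6, which held 2188778, 2259064 and 1902332 reads, and -0.010, -0.038 and -0.074 in edited samples 2, 3 and 4, which held 817329, 1043283 and 1304737. In the controls it was 0.13 and 0.043 in samples 4 and 5, the deepest, and -0.15, -0.16 and -0.13 in samples 2, 3 and 6, while control sample 1, with 1163643 reads, stood at 0.24. The same median over all tested genes stayed between -0.031 and 0.046 in every bovine sample. The read numbers include reads of the ribosomal RNA gene RN18S1, and the part of depth or of RN18S1 in the bovine values was not tested. In mouse the members' median was -0.42 and -0.24 in edited samples 1 and 2, and 0.065 and -0.065 in control samples 1 and 2, so that edited sample 1 was the lowest and edited sample 2 the deepest library.

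**Figure D4:**
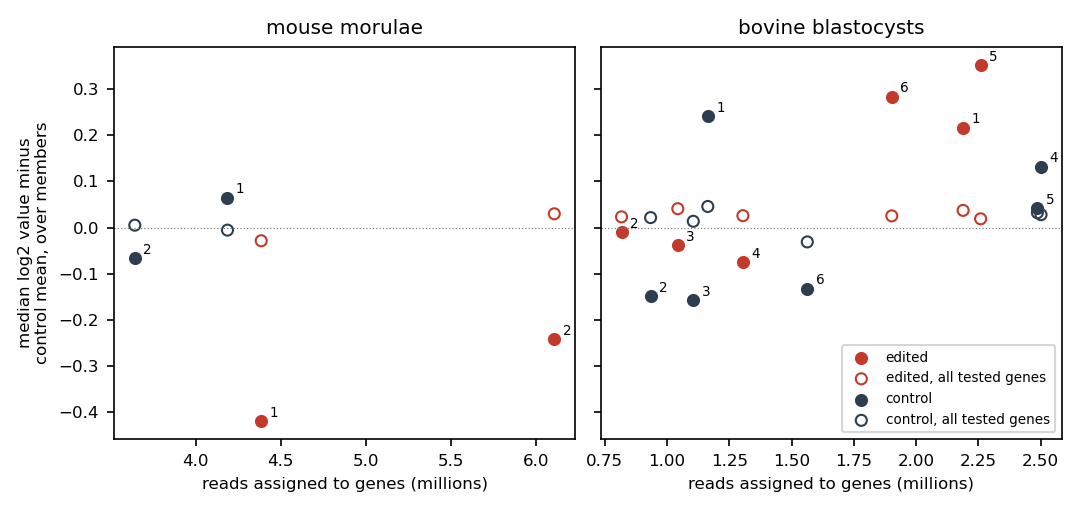
Median over the tested members (filled) and over all tested genes (open) of the log2 value minus the control mean, against the number of reads assigned to genes (x axis), for each mouse and bovine sample, numbered by replicate; edited samples are red and control samples dark blue. Both edited mouse samples lie below both controls, at -0.42 and -0.24, while edited bovine samples 1, 5 and 6 lie highest of that group.

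The difference between species in the response, tested per gene over the 7076 symbols tested in both tables, passed for 4 of 33 members, against 6.08% of those symbols. In each the mouse log2 fold change was the lower: CHCHD1 (-1.10 ± 0.27, adjusted p = 0.00986), TIMM13 (-0.95 ± 0.27, adjusted p = 0.0277), TIMM8A (-0.96 ± 0.30, adjusted p = 0.0432) and COA3 (-0.92 ± 0.29, adjusted p = 0.0429). Species, stage, sample number and the extent of the drop in TEAD4 transcript, which did not pass in cattle, cannot be told apart in this comparison. For TOMM7, which fell in mouse, the difference was -0.47 ± 0.24, adjusted p = 0.262, with a 95% interval from -0.96 to 0.027, and for CHCHD10 it was -0.65 ± 0.47, adjusted p = 0.448. The median difference was -0.47 over the members and -0.057 over all shared symbols. In fits that left out 1 mouse sample, the difference ranged from -1.28 to -0.92 for CHCHD1 and from -1.12 to -0.78 for TIMM13. It ranged from -1.23 to -0.70 for TIMM8A and from -1.11 to -0.74 for COA3. No call held without mouse control sample 1 or without mouse control sample 2. In fits that left out 1 bovine sample, CHCHD1 passed each time (adjusted p up to 0.0208). TIMM13, TIMM8A and COA3 did not always pass, with adjusted p up to 0.0602, 0.0857 and 0.0845. The 4 members did not pass with the length trend removed in mouse either. In that last fit the differences were -0.81 (adjusted p = 0.0979) for TIMM8A, -0.74 (adjusted p = 0.0884) for TIMM13, -0.62 (adjusted p = 0.165) for CHCHD1 and -0.53 (adjusted p = 0.268) for COA3.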

How the data were processed

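Polyadenylated RNA was reverse transcribed with an oligo(dT) primer and made into Smart-seq2 libraries, per the labels' protocols. DESeq2, featureCounts, HISAT2 and Trimmomatic, with the builds mm10 and ARS-UCD1.2, are listed in the submitters' processing notes. Annotation and strand setting: not given in the sources used here. The deposited signal values are gene-level read counts after division by the authors' DESeq2 size factors, in 1 table per species. The authors' DESeq2 log2 fold changes, p-values and statistic (a score) stand beside them in the deposited tables, per the file headers; only the members' calls were quoted. In every sample 100% of values were whole multiples of 1 read (tolerance 0.05 reads), and these recovered reads gave the depths.

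Groups came from sample titles. Within each table, genes averaging 10 or more were tested with limma 3.58.1 under R 4.3.3 on log2(value + 1) (trend, edited minus control, two-sided, Benjamini-Hochberg over all tested genes, threshold 0.05), which understates changes of low genes; every adjusted p is from limma unless another tool is named. Species differences used both standard errors with Satterthwaite degrees of freedom. Mouse coordinates and exonic lengths came from GENCODE M21, matched for 37 of 37 members and 89.1% of mouse names. Alternatives were pseudocounts of 0.5 and 5, no filter or a mean of 50, equal totals (without RN18S1 in bovine), robust limma, edgeR 4.0.16 and DESeq2 1.42.0 on recovered reads, a replicate block, removal of the length trend (loess) in mouse, and leaving out each sample; leaving out samples or the length trend for the species difference and the other pathway genes was chosen after seeing the data. The members and lists were chosen with earlier results of these data known. Named in full were members past the threshold, 18 core members and, in bovine, the 3 with the smallest p in each direction, with up to 4 other pathway genes per list by size of change; Grpel1, Phb and Phb2, and sample values of Tomm5, Tomm6, Timm8a2, Timm21 and Coa5, were added after their values were seen. The result of 1 other pathway gene is not reported here.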

Additional observations from a re-analysis of the deposited data

Results flagged for a closer look

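In 5 of the 72 bovine groups of 6 values (36 members, edited and control), 1 sample stood apart from the other 5 by more than 0.625 of the group's range, where chance alone marks about 1 group in 20. TIMM22 was at 88.9 normalized reads in edited sample 5, with the nearest other edited sample at 54.5, and at 32.1 in control sample 3, with the nearest other control at 46.2. TIMM8A was at 255 in control sample 3, against 199 in the nearest other control. TIMM8B was at 63.1 in control sample 2, the shallowest control library, against 90.4. TIMM17A was at 59.1 in control sample 1, against 35.9.

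The response to editing differed between mouse morulae and bovine blastocysts in 4 of 33 members by a test of the difference itself, against 6.08% of the 7076 shared symbols. The mouse minus bovine log2 fold changes were -1.10 for CHCHD1, -0.95 for TIMM13, -0.96 for TIMM8A and -0.92 for COA3 (limma standard errors, adjusted p up to 0.0432, n = 2 per group in mouse and 6 in bovine). With the length trend removed in mouse, these 4 members did not pass. Species, stage, sample number and the extent of the drop in TEAD4 transcript cannot be told apart here.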

How the results depend on the processing

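Across the pseudocounts, robust limma, edgeR, DESeq2, both filters and the replicate block, mouse members called lower numbered 6 to 10, against 9. In these fits 0 were called higher. With no filter it was 6 of 37 members, where 4.86% of 16655 genes were called lower and 692 genes higher. With a mean of 50 it was 10 of 33, where 11.8% of 7432 genes were called lower and 668 higher. Robust limma gave 10 of 35, where 8.50% of 11386 genes were called lower and 776 higher. Scaling to the same total gave 5 lower members at a median of -0.25, and 8 lower and 5 higher genes of the other import and assembly lists. In that fit 684 of all 11386 tested genes were called lower and 1113 higher. Removing the length trend gave 5 lower members at a median of -0.12 and 1 higher gene of those lists. In that fit 681 of 10688 genes were called lower and 566 higher. The species differences of CHCHD1, TIMM13, TIMM8A and COA3 did not pass with it. In the fits that left out 1 sample, mouse members called lower ranged from 0 to 13 and their median from -0.44 to -0.24, lower genes of the other lists from 0 to 18 and higher ones from 0 to 4, and members that differed between species from 0 to 7. In bovine no alternative called a member, and the median stayed positive, from 0.052 to 0.18 without 1 sample. With the replicate block 9 mouse members were lower and 0 bovine members were called; same-numbered samples deviated together with a correlation of 0.106 in mouse and -0.193 to 0.335 in bovine, so the shared numbers were not taken to pair the samples. Of the values of single members under the alternatives, 19 of 523 in mouse and 50 of 748 in bovine changed sign without passing, and 0 values reversed where either fit called them. Over all tested genes DESeq2 called 5 bovine genes lower, against 1 with limma. With 2 mouse samples per group, most calls were lost when 1 control sample was left out, and a lone remaining sample is assumed to vary like the others. Over the fits that left out 1 sample, the log2 fold changes of the 9 called members stayed between -1.22 (Timm8a1) and -0.43 (Coa3).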

Other observations

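The 35 tested mouse members together took 0.646% and 0.708% of all normalized reads in the edited samples and 0.840% and 0.761% in the control samples. The 36 tested bovine members took 0.364% to 0.541% in the edited and 0.307% to 0.458% in the control samples, or 0.428% to 0.600% and 0.454% to 0.539% when the ribosomal RNA gene RN18S1 was left out of the total. Within the motif of the twin pair Timm8a1 and Timm8a2, 13 of 72 bases differ.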
